A study of Glycine max with 20 samples.

Results

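Of the 56044 genes in the deposited table, 6 that are related to known regulators of seed or grain size were followed through seed coats of a standard and a minute hilum isoline. They were chosen by gene identifier, from seed size genes that the study discusses. The rule used no value, but the choice was made with earlier results of these data known. The genes were BS1 (Glyma.10G244400), BS2 (Glyma.20G150000), 2 BG1-like genes on chromosomes 7 (Glyma.07G036700) and 16 (Glyma.16G006100), a DA1-like gene (Glyma.16G142700) and a KLU-type cytochrome P450 (Glyma.05G019200). For each gene the values are those of its first gene model. The hilum is the area of the seed coat next to the scar of the funiculus, which joins the seed to the pod. The study asked which genes differ in expression between an isoline with a small hilum, whose dry seed coats crack around it, and its recurrent parent.

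The standard isoline was UC7 (Clark 63, genotype i-i R T Mi g). The minute hilum isoline was UC413 (i-i R t mi G), a Clark line with an introgressed mi allele, so that the isolines also differed at T and G. Each is a single inbred line, and both were grown in a greenhouse. Extended hilum tissue, the hilum with a narrow ring around it, was dissected from seeds of 10 to 25 mg (EH10), 25 to 50 mg (EH25) and 50 to 100 mg (EH50), with 2 libraries for each isoline and stage, and from seeds of 100 to 200 mg (EH100), with 1 library for each isoline. Whole seed coats of the first 3 weight classes (WS10, WS25 and WS50) gave 1 library for each isoline and class. A non-stranded kit was used in both isolines for EH50 replicate 1, EH100 and WS50, and a stranded kit for the rest.

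BS1 and BS2 encode TIFY-domain proteins of the PEAPOD type, which in legumes limit the size of seeds, pods and leaves by holding back cell proliferation. BIG GRAIN1 (BG1) is a positive regulator of grain size known from rice, where it affects the response to auxin. DA1 of Arabidopsis is a ubiquitin-activated peptidase that restricts cell proliferation in the integuments, the tissue that becomes the seed coat, while KLU, an Arabidopsis cytochrome P450 of the CYP78A family, promotes growth of the integuments. Seed coats are maternal tissue, and such genes act there on the space in which the seed grows.

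For some of the genes the annotation in the table names a relative of the regulator. Both BS1 and BS2 carried the TIFY and divergent CCT domains and had PPD2 of Arabidopsis as best hit, and no other gene in the table had it. The DA1-like gene, with a LIM domain, had DAR1, a relative of DA1, as best hit, while 2 other soybean genes had DA1 itself. The KLU-type P450 had CYP78A10 as best hit, and 7 other genes had CYP78A5, the KLU gene. The BG1-like genes had no annotated domain, and their best hits were 2 unnamed Arabidopsis loci. The names are kept here as labels for the gene identifiers.

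The values are RPKM, alignments scaled by the length of the model and the depth of the library. Multiplied by model length they came out as whole multiples of 1 step for 100% of the models in every library (tolerance 0.01). This gave 91768975 to 128803969 alignments per library. Over the 6 genes the alignments in a library ran from 48 (KLU-type P450) to 3450 (chromosome 16 BG1-like gene). At this depth 3 alignments to a model of 1 kb equal an RPKM of 0.0233 to 0.0327, and all 6 genes lay above that in all 20 libraries. Size factors, the median ratio of a library to all 20, ran from 0.545 (UC7 EH10 replicate 1) to 1.12 in UC7 and from 1.10 to 1.18 in UC413. In the extended hilum they were lower in UC7 at every stage, so deposited RPKM was lower there for most genes. In whole seed coats they were 1.02, 1.10 and 1.12 in UC7 and 1.16, 1.10 and 1.10 in UC413 from WS10 to WS50. Levels below are RPKM divided by the size factor (scaled RPKM). Differences are on the log2(scaled RPKM + 0.25) scale, which understates the change of low genes. Summed levels of 21 seed coat marker genes, STK and BAN among them, ran from 719 to 1195 over the libraries. At EH10 they were 984 and 979 in UC413 and 1195 and 1117 in UC7. At EH50 they were 823 and 882 in UC413 and 1026 and 1093 in UC7, and at EH25 the isolines overlapped. Summed levels of 25 embryo markers (1 of them at 0 throughout) and 5 endosperm markers were higher in UC7 than in UC413 with no overlap within EH10, EH25 or EH50. Over the 3 stages the embryo sums ran from 14.0 to 83.7 in UC7 and from 9.26 to 50.6 in UC413, and the endosperm sums from 3.06 to 6.76 and from 1.01 to 3.78. In whole coats the embryo sums were higher in UC413 at WS10 (44.1 against 21.0) and WS50 (63.9 against 51.2). At WS25 they were lower in UC413 (51.3 against 90.9). The part of these sums in the isoline differences was not tested, and in bulk tissue fewer cells of a type and less RNA per cell cannot be told apart.

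RPKM is per length, so levels can be set side by side between genes. A read could align to up to 25 models, so the order of the 6 genes is uncertain where relatives share reads. The chromosome 7 BG1-like gene had the highest RPKM of the 6 in 12 of 20 libraries, and its partner on chromosome 16 in 3, while the DA1-like gene led in the other 5. The KLU-type P450 was the lowest in 11 libraries and BS1 in 8. By scaled RPKM over all 20 libraries, BS1 and BS2 varied least, with a highest level 1.79 and 1.70 times the lowest. That ratio was 3.37 for the DA1-like gene, 4.91 and 5.46 for the BG1-like genes of chromosomes 16 and 7, and 25.0 for the KLU-type P450.

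**Figure D1:**
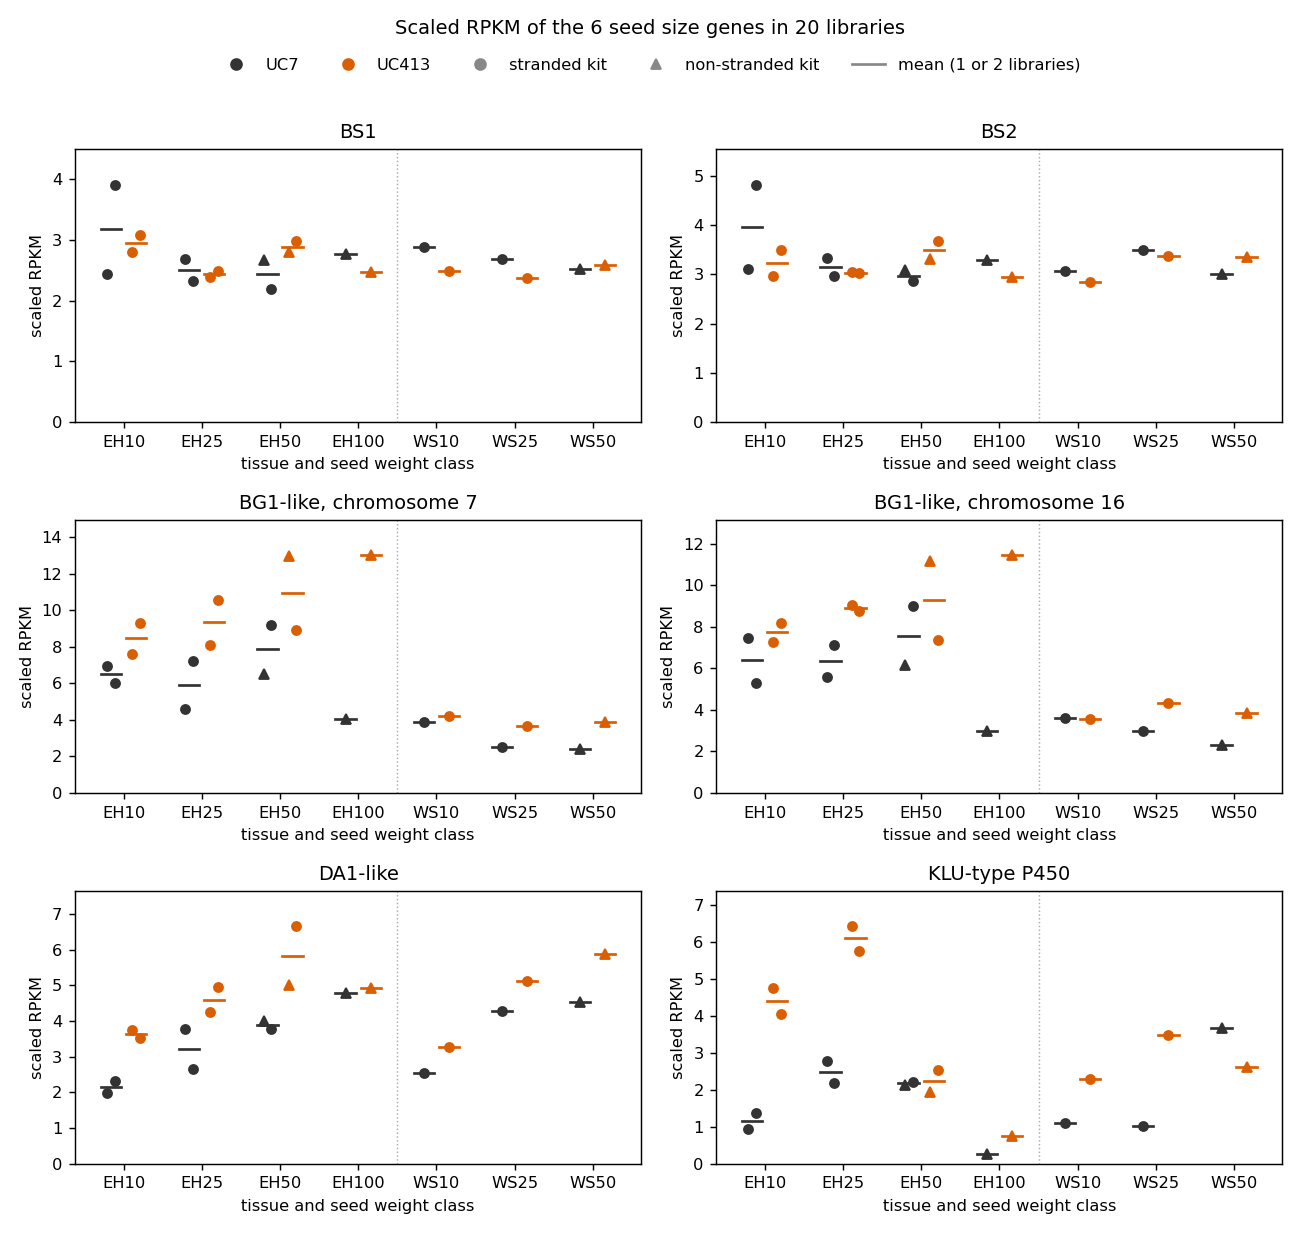
Scaled RPKM of each of the 6 genes (one panel each, axes from 0) by tissue and seed weight class, for UC7 in black and UC413 in orange, with a point for each library (circle stranded kit, triangle non-stranded kit) and a line at the mean of the 1 or 2 libraries. The KLU-type P450 stands at 4.04 to 6.41 in the UC413 libraries of EH10 and EH25 against 0.939 to 2.78 in UC7, BS1 and BS2 stay near 2.63 and 3.09, and the BG1-like genes are lower in whole seed coats than in the hilum of EH10 to EH50, with UC7 EH100 (4.08 and 2.98) at the level of whole coats.

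The KLU-type P450 had the largest isoline differences of the 6 genes at EH10, EH25 and over the 3 stages, and the smallest at EH50. At EH10 the UC7 libraries had 0.939 and 1.38 scaled RPKM and the UC413 libraries 4.75 and 4.04. At EH25 UC7 had 2.78 and 2.17 and UC413 6.41 and 5.75. Both UC413 libraries lay above both UC7 libraries at these stages, 3.80-fold (means 4.39 ± 0.503 against 1.16 ± 0.308, SD, n = 2 each) and 2.46-fold (6.08 ± 0.467 against 2.47 ± 0.430). At EH50 UC7 had 2.13 and 2.21 and UC413 1.95 and 2.54, and the isolines overlapped. How many of all models separate without overlap at a stage was not counted, for this gene or the others of the 6.

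In the fit over 12 extended hilum libraries (limma, p adjusted over 57568 models by Benjamini and Hochberg, threshold 0.05) the log2 difference of this gene, UC413 minus UC7, was 1.73 (SE 0.19, adjusted p 0.00114) at EH10 and 1.22 (SE 0.19, adjusted p 0.0124) at EH25. At EH50 it was 0.03 (SE 0.19, adjusted p 0.936). It was the only 1 of the 6 genes to pass at EH10 and at EH25, where 6.36% and 2.21% of all models passed in either direction and 3.95% and 1.46% as higher in UC413. At EH50, where 8.07% passed, none of the 6 did. The call at EH25 was lost without UC413 EH25 replicate 1 (adjusted p 0.0643) or replicate 2 (0.0716) and with that stage fitted alone (0.102), while the call at EH10 was kept in all alternatives.

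Between stages the KLU-type P450 followed no single direction, with its highest hilum mean at EH25 (2.47 in UC7, 6.08 in UC413) and its lowest level at EH100 in both isolines. In UC413 its level fell from EH25 to EH50 (log2 change −1.35, SE 0.19, adjusted p 0.00427 by limma), where 5.48% of models passed, 3.32% as falling. That call was lost without UC413 EH25 replicate 1 (adjusted p 0.0533) or UC413 EH50 replicate 1 (0.0508). From EH10 to EH50, a comparison added after the levels had been seen, it rose in UC7 (0.80, SE 0.19, adjusted p 0.0228, where 11.4% of models passed and 6.06% rose) and fell in UC413 (−0.90, SE 0.19, adjusted p 0.0113, where 15% passed and 7.65% fell). From EH10 to EH25 in UC7 none of the 6 passed (0.155% of models did). This gene did so on RPKM as deposited (adjusted p 0.0301), and without UC7 EH25 replicate 2 both it (0.0168) and the DA1-like gene (0.0424) did. The call from EH10 to EH50 in UC7 was lost without UC7 EH10 replicate 1 (0.110), UC7 EH50 replicate 1 (0.111) or UC7 EH50 replicate 2 (0.107), and when replicate numbers were blocked stage by stage (0.0755), and that in UC413 without UC413 EH10 replicate 1 (0.0951) or UC413 EH50 replicate 1 (0.105). The isoline difference at EH50 minus that at EH10 was −1.70 (SE 0.27), with an unadjusted p of 8.6e-05 and an adjusted p of 0.192 by limma. No model passed in that contrast (0 of 57568, with 2162 at an unadjusted p under 0.05), so a change of the isoline difference with stage did not hold after adjustment. On RPKM as deposited it was −2.11 (adjusted p 0.0493).

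The single libraries gave further values for the KLU-type P450. At EH100 it was at 0.257 (48 alignments, 95% Poisson interval 0.189 to 0.340, counting error only) in UC7 and 0.746 (interval 0.640 to 0.864) in UC413, the lowest levels of each isoline. In whole seed coats UC413 was above UC7 at WS10 (2.28 against 1.11) and WS25 (3.46 against 1.02) and below it at WS50 (2.60 against 3.65). In order of group means, UC413 EH25 came first and UC413 EH10 next, with no overlap of their libraries. The groups from UC7 EH25 through UC413 WS10 and UC413 EH50 to UC7 EH50 (2.47 to 2.17) overlapped their neighbours.

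The DA1-like gene had a higher mean in UC413 at each stage, 1.69, 1.43 and 1.501 times that of UC7 at EH10, EH25 and EH50. At EH10 UC7 had 1.97 and 2.32 scaled RPKM and UC413 3.75 and 3.53. At EH25 UC7 had 3.76 and 2.64 and UC413 4.25 and 4.95, and at EH50 UC7 had 3.99 and 3.77 and UC413 5.0 and 6.65. Both libraries of UC413 lay above both of UC7 at all 3 stages, and how many of all models did so was not counted. The log2 differences were 0.70 (SE 0.18, adjusted p 0.0524) at EH10, 0.50 (SE 0.18, adjusted p 0.181) at EH25 and 0.54 (SE 0.18, adjusted p 0.0976) at EH50 by limma, none past the threshold. Without UC7 EH25 replicate 1 or replicate 2 the difference at EH10 passed (adjusted p 0.0252 and 0.0251), as it did with upper quartile scaling (0.0412), quantile normalization (0.0477) and on RPKM as deposited (0.00192).

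Averaged over the 3 stages, the isoline difference of the DA1-like gene was 0.58 (SE 0.11, adjusted p 0.00339 by limma). In that average 3 of the 6 genes passed, all higher in UC413 (the KLU-type P450 at 1.00 with SE 0.11 and adjusted p 0.000269, and the chromosome 7 BG1-like gene below), where 34.2% of all models passed in either direction and 17.2% as higher in UC413. On RPKM as deposited all 6 genes passed as higher in UC413, and the median of all models then rose to 0.42, against −0.02 with size factors.

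The level of the DA1-like gene also rose with seed weight. From EH10 to EH50 it rose in UC7 by 0.79 (SE 0.18, adjusted p 0.0217) and in UC413 by 0.63 (SE 0.18, adjusted p 0.0475, where 7.37% of models rose), with limma and after the levels had been seen. The UC7 call was lost without UC7 EH10 replicate 1 (0.0955), UC7 EH10 replicate 2 (0.0728), UC7 EH50 replicate 1 (0.133) or UC7 EH50 replicate 2 (0.0809), and when replicate numbers were blocked stage by stage (0.101). The UC413 call was lost without each of 10 of the 12 libraries, all but the UC7 EH25 pair (adjusted p 0.0562 to 0.276), and in 8 other alternatives (0.0517 to 0.245). Whole seed coats had an order like that of the hilum, 2.54, 4.27 and 4.52 in UC7 from WS10 to WS50 and 3.26, 5.13 and 5.88 in UC413. At EH100 the isolines were close, at 4.79 in UC7 and 4.91 in UC413. By group mean, UC413 WS50 and UC413 EH50 (5.88 and 5.83) were highest and did not differ beyond the spread of the EH50 libraries, and UC7 WS10 (2.54) and UC7 EH10 (2.15) were lowest.

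The 2 BG1-like genes ran closely together. The chromosome 7 gene had 6.98 and 6.03 scaled RPKM in UC7 at EH10 and 7.62 and 9.31 in UC413. At EH25 UC7 had 4.58 and 7.21 and UC413 8.09 and 10.6, and at EH50 UC7 had 6.52 and 9.21 and UC413 12.96 and 8.91. UC413 was above UC7 without overlap at EH10 and EH25, and the isolines overlapped at EH50. There, within the non-stranded kit UC413 was 1.99 times UC7, and within the stranded kit 0.967 times. None of the differences at single stages passed (log2 0.37, 0.66 and 0.46, limma adjusted p 0.406, 0.211 and 0.289).

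Over the 3 stages the chromosome 7 gene was higher in UC413 by 0.50 (SE 0.15, adjusted p 0.0300 by limma). This call was lost without any 1 of 7 libraries: UC7 EH10 replicate 1 (0.0507) or 2 (0.0654), UC413 EH10 replicate 2 (0.0793), UC7 EH25 replicate 1 (0.0553), UC413 EH25 replicate 2 (0.0795), UC7 EH50 replicate 1 (0.0796) or UC413 EH50 replicate 1 (0.0779). The chromosome 16 gene had a difference of 0.35 (SE 0.14, adjusted p 0.0793), and passed without the UC7 (0.0495) or the UC413 (0.0398) library of EH50 replicate 2. Its levels were 7.47 and 5.31 in UC7 and 7.29 and 8.21 in UC413 at EH10, then 5.58 and 7.12 against 9.07 and 8.75 at EH25, and 6.18 and 8.98 against 11.2 and 7.37 at EH50. The isolines were apart only at EH25 and overlapped at EH10 and EH50.

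At EH100 the pair stood far apart between the isolines, with 1 library each. The chromosome 7 gene was at 4.08 in UC7 and 13.01 in UC413, a ratio of 3.19, and the chromosome 16 gene at 2.98 and 11.4, a ratio of 3.85. Both UC7 values lay below all UC7 hilum libraries of the earlier stages. Summed embryo markers were also apart in these 2 libraries, 367 in UC7 and 133.6 in UC413, and their part in the difference was not tested.

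BS1 and BS2 showed no difference between the isolines that passed. Like the BG1-like genes, they also passed in no comparison of stages, where 0.155% (EH10 to EH25) and 1.18% (EH25 to EH50) of models passed in UC7 and 0% and 5.48% in UC413. BS1 had 2.44 and 3.91 scaled RPKM in UC7 at EH10 and 2.80 and 3.09 in UC413, then 2.69 and 2.33 against 2.38 and 2.49 at EH25. At EH50 UC7 had 2.67 and 2.19 and UC413 2.79 and 2.98, the only stage without overlap. The log2 differences were −0.06, −0.03 and 0.23 (SE 0.19 each, limma adjusted p 0.872, 0.948 and 0.479), and 0.04 (SE 0.11, adjusted p 0.777) over the 3 stages.

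For BS2 the values were 3.10 and 4.82 in UC7 and 2.97 and 3.5 in UC413 at EH10, and 3.32 and 2.97 against 3.04 and 3.02 at EH25. At EH50 UC7 had 3.08 and 2.87 and UC413 3.31 and 3.68, again the only stage at which the isolines did not overlap. Its differences were −0.24, −0.05 and 0.21 (SE 0.18 each, limma adjusted p 0.440, 0.915 and 0.481), and −0.03 (SE 0.10, adjusted p 0.868) over the 3 stages. In UC7 EH10 replicate 2 both genes had their highest value of all 20 libraries, 3.91 and 4.82. These directions depend on the scaling, since on RPKM as deposited BS1 and BS2 were higher in UC413 over the 3 stages (0.48 and 0.42, adjusted p 0.0261 and 0.0408), near the shift of 0.42 of all models. The other 3 splice forms of each gene differed between the isolines by −0.29 to 0.24 at the single stages, and none passed.

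**Figure D2:**
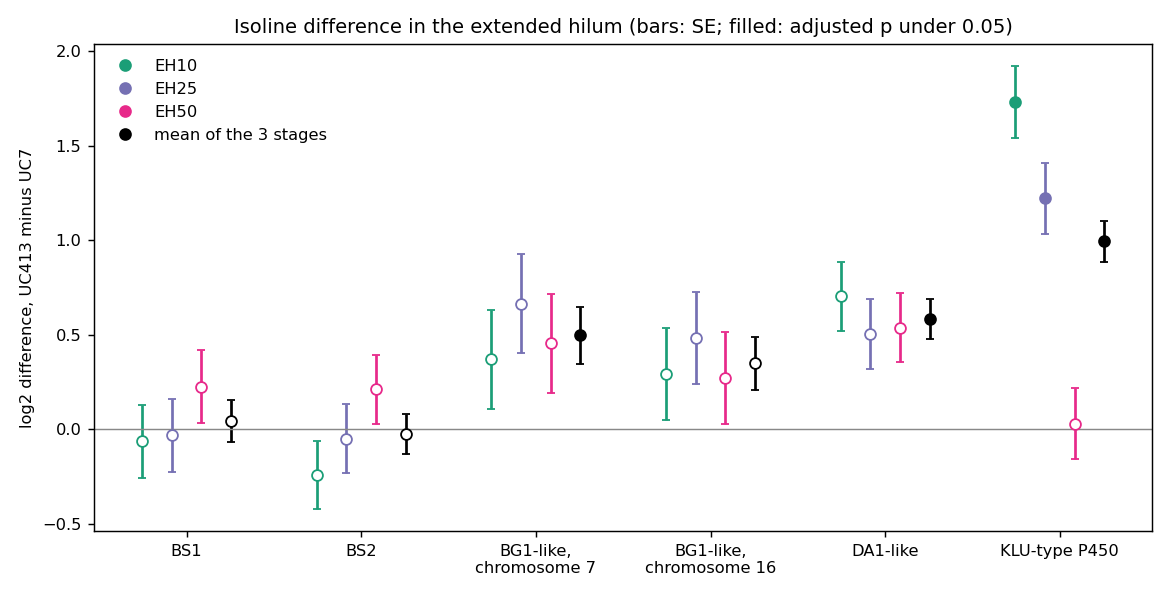
Log2 difference in the extended hilum, UC413 minus UC7, of the 6 genes at EH10 (green), EH25 (purple), EH50 (pink) and averaged over these stages (black), with bars of 1 SE from the limma fit and filled points where the adjusted p is under 0.05. The KLU-type P450 lies at 1.73, 1.22 and 0.03, the DA1-like gene between 0.50 and 0.70, and BS1 and BS2 between −0.24 and 0.23.

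The extended hilum was then set against the whole seed coat. Both BG1-like genes were higher in the hilum, in both isolines. The 12 hilum libraries of EH10 to EH50 ran from 4.58 through a median of 7.86 to 12.96 for the chromosome 7 gene, while the 6 whole coat libraries had 3.87, 2.50 and 2.38 in UC7 and 4.21, 3.67 and 3.87 in UC413 from WS10 to WS50. For the chromosome 16 gene the hilum libraries ran from 5.31 through 7.42 to 11.2, and the whole coats had 3.63, 3.0 and 2.33 in UC7 and 3.54, 4.35 and 3.84 in UC413. How many of all models separate in this way was not counted, but for both genes each of these 12 libraries was above each whole coat library in scaled RPKM. The UC7 EH100 hilum library, which is not among the 12, lay at the level of whole coats, at 4.08 for the chromosome 7 gene and 2.98 for the chromosome 16 gene. On RPKM as deposited the tissues overlapped. The chromosome 7 gene had 3.80 and 4.86 in UC7 EH10 and 4.89 in UC413 WS10. The chromosome 16 gene had 4.07 and 4.28 in UC7 EH10 and 4.77 in UC413 WS25.

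In a fit over these 18 libraries with isoline and stage as groups, the hilum was higher by 1.18 on the log2 scale (SE 0.13, limma adjusted p 3.4e-05) for the chromosome 7 gene and by 1.10 (SE 0.12, adjusted p 2.6e-05) for the chromosome 16 gene. These were the 2 genes of the 6 that passed, where 27.5% of 59783 models did, 13.9% as higher in the hilum. Within UC7 alone the differences were 1.147 (adjusted p 0.00201) and 1.12 (adjusted p 0.00125), and within UC413 1.22 (adjusted p 0.0020) and 1.09 (adjusted p 0.00214), against 23.8% and 10.7% of models passing. The ratio of the hilum mean to the whole coat of the same class was 1.68, 2.36 and 3.30 in UC7 from the lightest to the heaviest class for the chromosome 7 gene, and 2.01, 2.54 and 2.82 in UC413. For the chromosome 16 gene it was 1.76, 2.12 and 3.25 in UC7 and 2.19, 2.05 and 2.41 in UC413. On RPKM as deposited the UC7 ratio in the lightest class was 1.09 for the chromosome 7 gene and 1.12 for the chromosome 16 gene. A whole coat class has 1 library, and a trend with weight was not tested. In the heaviest class the hilum mean mixes the 2 kits, while the whole coats came from the non-stranded kit. The non-stranded EH50 libraries had 6.52 in UC7 and 12.96 in UC413 for the chromosome 7 gene, over whole coats of 2.38 and 3.87. For the chromosome 16 gene they had 6.18 and 11.2, over 2.33 and 3.84. Within that kit the ratio was thus higher in UC413 than in UC7 for both genes.

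The other 4 genes did not pass in this comparison. The KLU-type P450 had a hilum difference of 0.31 (SE 0.19, adjusted p 0.226 by limma), with the hilum mean above the whole coat in both isolines at 25 to 50 mg (2.42 and 1.76 times) and below it at 50 to 100 mg (0.594 and 0.863 times). At 10 to 25 mg the ratio was 1.04 in UC7 and 1.93 in UC413. The fit assumes a like tissue difference in all weight classes, so for this gene 0.31 averages ratios that ran in opposite directions. Without the UC7 WS50 library the difference was 0.51 (adjusted p 0.0416), and in stranded libraries alone 0.69 (adjusted p 0.0201), both past the threshold. The DA1-like gene had a difference of −0.15 (SE 0.09, adjusted p 0.229), BS1 of 0.06 (SE 0.08, adjusted p 0.647) and BS2 of 0.04 (SE 0.09, adjusted p 0.761). No gene of the 6 passed for a difference of the hilum effect between the isolines, where 0.0753% of models did.

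**Figure D3:**
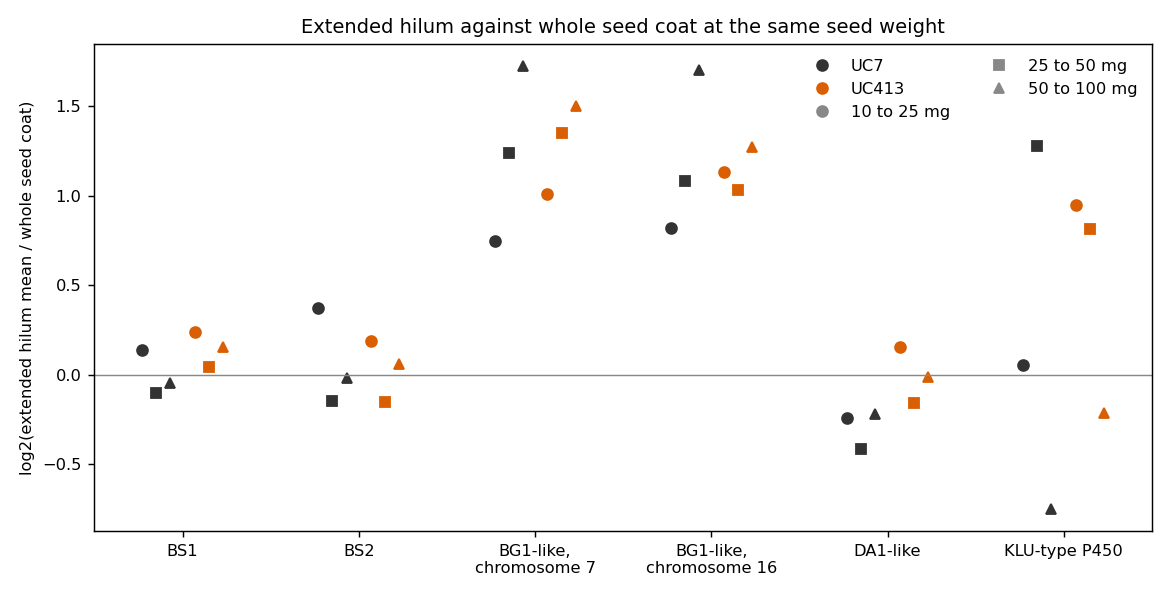
Log2 ratio of the extended hilum (mean of 2 libraries) to the whole seed coat (1 library) at the same seed weight for the 6 genes, UC7 in black and UC413 in orange, with a circle for 10 to 25 mg, a square for 25 to 50 mg and a triangle for 50 to 100 mg. All 12 points of the BG1-like genes lie above 0.7, and those of BS1 and BS2 lie between −0.15 and 0.37.

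The partners were also compared within each library, as the log2 ratio of RPKM + 0.25. BS1 was below BS2 in all 20 libraries, at 0.704 to 0.944 times its RPKM. On the log2 scale BS1 over BS2 was −0.29 ± 0.05 in UC7 and −0.22 ± 0.09 in UC413 (SD, n = 6 extended hilum libraries each, EH10 to EH50). The difference of 0.06 had an exact permutation p of 0.157 (two-sided, isoline labels permuted within each stage, 216 arrangements, smallest possible p 0.00926). The chromosome 7 BG1-like gene was above its partner in 15 of 20 libraries, at 0.820 to 1.37 times. Its log2 ratio was −0.01 ± 0.15 in UC7 and 0.14 ± 0.16 in UC413 (SD, n = 6 each), a difference of 0.15 (exact permutation p 0.130), and after adjustment over the 2 pairs both had p 0.157.

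**Figure D4:**
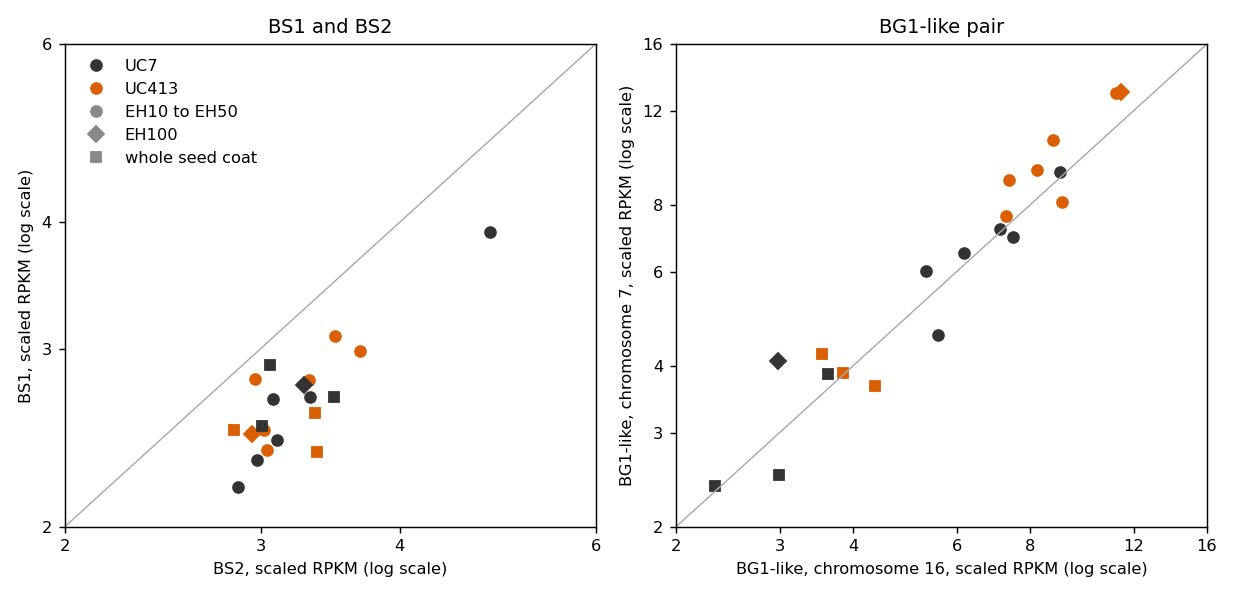
Scaled RPKM of BS1 against BS2 (left) and of the chromosome 7 against the chromosome 16 BG1-like gene (right) in 20 libraries on log axes, with the line of equal levels. UC7 is black and UC413 orange, circles are EH10 to EH50, diamonds EH100 and squares whole seed coats. All points of the left plot lie below the line, within 2.19 to 4.82, and the right plot spans 2.33 to 13.01 along the line.

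The genes whose pattern over the 20 libraries was most like each of the 6 were sought among 60196 models by Pearson's r of the log2 levels, as a description. For the BG1-like genes each was the nearest of the other (r = 0.963, n = 20). Next came a Clp-N motif protein gene, Glyma.02G198000 (0.950 with the chromosome 7 and 0.938 with the chromosome 16 gene), then a bHLH gene, Glyma.12G216800 (0.944), for the first and a MATE efflux gene, Glyma.17G027900 (0.937), for the second. The genes nearest to the DA1-like gene were 2 further genes with DAR1 as best hit, Glyma.02G059900 (0.973) and Glyma.12G160000 (0.964), and an AGC kinase gene, Glyma.02G003200 (0.958).

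For the KLU-type P450 the nearest were a decapping 5-like gene, Glyma.09G218400 (0.920), a CYP86A8-type P450, Glyma.05G208900 (0.918), whose Arabidopsis counterpart acts on fatty acids, and Glyma.10G040300 (0.913), without annotation. A splice form of BS2 was nearest to BS1 (0.854), followed by Glyma.05G013900, with a BED zinc finger (0.767), and the Tudor-domain gene Glyma.11G012300 (0.744). BS2 had BS1 (0.834), then Glyma.11G169000, of the RCC1 family (0.737), and Glyma.09G030800, without annotation (0.726). All 20 libraries enter each r, including isoline, stage and tissue differences shared by many genes. Between genes of different families among the 6, r lay from −0.18 to 0.26. A read could align to up to 25 models, so related genes (BS1 and BS2, the BG1-like pair, the DAR1 genes) may share reads. Their sequences were not compared, and their values are uncertain to that extent.

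Genes around these regulators were counted from lists set by best Arabidopsis hit, 65 tested genes of 114. Each was represented by its tested splice form with the highest mean, not always the first model (for TTG2 below, Glyma.03G176600.5). The DA1 list held relatives of DA1, the ubiquitin ligases DA2 and BB, the protease UBP15 and TCP factors. Of its 20 tested genes 9 passed as higher and 1 as lower in UC413 than in UC7, averaged over the 3 stages. The median log2 difference was 0.15 against −0.08 for all 31639 genes tested, of which 35.5% passed and 13.9% as higher in UC413. On RPKM as deposited 16 were higher and none lower, with medians of 0.62 and 0.36. With size factors, all 5 other DAR1 genes were among those higher in UC413, by 0.54 to 0.67. At EH10 the list had 4 higher, where 6.84% of genes passed: UBP15 (Glyma.13G259700, 0.88, SE 0.16, limma adjusted p 0.0134) and the DAR1 genes Glyma.01G179800 (0.50), Glyma.11G062400 (0.53) and Glyma.02G059900 (0.85). At EH25, where 2.55% of genes passed, Glyma.01G179800 passed, and at EH50, where 8.28% did, UBP15, Glyma.01G179800 and Glyma.11G062400.

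No other CYP78A gene passed as higher in UC413 than in UC7, averaged over the 3 stages. Of 7 tested 3 were lower in UC413 (median −0.31), where 21.6% of all genes were, and on RPKM as deposited 2 were (median −0.0022). The largest difference was in Glyma.16G021200, a CYP78A6 type, with −2.12, −2.43 and −2.37 at EH10, EH25 and EH50 (limma adjusted p 0.0140, 0.0136 and 0.0114). Its scaled mean at EH10 was 7.96 in UC7 and 1.60 in UC413. Its relative Glyma.07G052300 had −1.25, −1.82 and −1.49, none past the threshold at a single stage (adjusted p 0.165, 0.0967 and 0.0960), and passed over the 3 stages (−1.52, adjusted p 0.00433).

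The PPD list holds partners and targets of PEAPOD proteins (KIX, NINJA, TPL and D3 cyclins) with the growth genes SAP, GIF1 and GRF5. Of its 18 tested genes 6 were lower and none higher in UC413 than in UC7 over the 3 stages (median −0.19). Of all genes 21.6% were lower and 13.9% higher. On RPKM as deposited 8 of the list were higher and none lower, and after quantile normalization 2 were higher and 6 lower. At a single stage only the D3 cyclin Glyma.20G126700 passed, lower at EH50 by −0.65 (adjusted p 0.0322 by limma). On RPKM as deposited that value was −0.37 (adjusted p 0.360), and at EH10 it passed as higher there (0.86). Of 3 other tested BG1-like genes, Glyma.17G225300 was higher in UC413 at EH10 (1.32, adjusted p 0.0139) and Glyma.06G055200 lower (−0.74, adjusted p 0.0187), the latter at −0.0016 on RPKM as deposited.

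Among other regulators of seed size 5 of 17 tested genes were higher and none lower in UC413 than in UC7 over the 3 stages (median 0.14). Of all genes 13.9% were higher and 21.6% lower. On RPKM as deposited 12 of the 17 were higher (median 0.57). TTG2 (Glyma.03G176600), which acts in Arabidopsis seed coats, was higher at EH10 (0.77, limma adjusted p 0.0434) and EH50 (0.85, adjusted p 0.0286). The AP2 genes Glyma.05G091200 and Glyma.17G170300 were higher at EH50 (0.96 and 0.90, adjusted p 0.0431 and 0.0246), and ANT (Glyma.05G108600), a promoter of organ growth, at EH25 (1.03, adjusted p 0.0228). Other genes that the study discusses for seed size were Glyma.16G158700, with no symbol, which was higher at EH10 and EH25 (0.91 and 0.85, adjusted p 0.0201 and 0.0446), and the PUB14 type Glyma.10G208200, with −0.11, −0.13 and −0.07 (adjusted p 0.677, 0.672 and 0.813). The EH10 call of the former was lost without UC7 EH10 replicate 2 (0.0741) or UC413 EH10 replicate 1 (0.145) or 2 (0.0660). Its EH25 call was lost without any 1 of 10 of the 12 libraries (0.0615 to 0.177), all but the UC7 EH10 pair.

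Over all lists 26 of 65 genes passed over the 3 stages, against 35.5% of all genes. At EH10 8 passed (6.84% of all genes did), at EH25 3 (2.55%) and at EH50 8 (8.28%). The counts at single stages moved with single libraries. At EH10 they were 0 without UC7 EH10 replicate 1 or UC413 EH10 replicate 1, 1 without UC413 EH10 replicate 2, 4 without UC7 EH10 replicate 2, 5 without either UC7 EH50 library, and 15 without either UC7 EH25 library. At EH25 they were 0 without UC413 EH25 replicate 2, 1 without replicate 1 and 8 without UC7 EH25 replicate 2. At EH50 they were 0 without either UC7 EH50 library or the first of UC413, 2 without the second, 5 without either UC413 EH10 library, and 16 and 15 without UC7 EH25 replicate 1 or 2. Every single-stage call of these lists was thus lost in at least 1 such fit. The count over the 3 stages stayed at 19 to 33.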

How the data were processed

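RNA-Seq reads of 20 seed coat libraries were aligned by the authors with Bowtie to the Glyma gene models of the Wm82.a2 assembly, with at most 3 mismatches and 25 alignments for a read, and were deposited as RPKM for 88647 models. The aligner was Bowtie v1, and its full version is not given in the sources used here. A read counts at each model it aligned to, so alignments exceed reads. The study describes replicates as independent.

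RPKM was divided by median-of-ratios size factors (12 libraries for isolines and stages, 20 for tissues and printed levels). Then log2(value + 0.25) was fitted with limma 3.58.1 (trend in the prior variance) in R 4.3.3 with the data.table package (1.17.8), without a replicate block, for models with RPKM of at least 1 in at least 2 libraries. All 6 genes passed this filter. The fits have 6 residual degrees of freedom for isolines, 11 for tissues and 10 for tissues within isolines. Levels, ratios and figures used Python 3.11.15 with pandas, NumPy and matplotlib. The fit was also run on simulated data. These had no shift of size factors between the isolines, so the scaling was not tested there.

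The 6 genes and the lists were chosen with earlier results of these data known. Named genes are the 6, the 3 nearest patterns to each, list genes called between the isolines at 1 or more stages, and 6 genes the study discusses for seed size. No sequences are printed.

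The alternatives were deposited RPKM, upper quartile, quantile and 20-library scaling, pseudocounts of 1 and 0.05, no filter and RPKM 2, replicate blocks, kit as a covariate, suffix 1 models, no trend, a robust prior, limma-voom on recovered alignments, single stages, stranded libraries and each library left out. EH10 to EH50 comparisons, and pair ratios without a pseudocount or with a replicate block, were added after the data were seen.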

Additional observations from a re-analysis of the deposited data

Results flagged for a closer look

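Against the mean of the EH50 libraries, which mixes the 2 kits, EH100 lay in opposite directions in the 2 isolines in 5 of the 6 genes. How many of all models did so was not counted, so the 5 cannot be set against a share. With 1 library for each isoline at EH100 these differences were not tested. The values are log2 ratios of the EH100 library to the mean of the EH50 libraries, UC413 minus UC7, and each EH100 library of these genes lay outside the range of its EH50 libraries.

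For the chromosome 7 BG1-like gene the difference was 1.20 (−0.95 in UC7 and 0.25 in UC413), and for the chromosome 16 gene 1.65 (−1.35 and 0.30). The DA1-like gene went the other way, with −0.55 (0.30 in UC7 and −0.25 in UC413), and so did BS1 with −0.41 (0.18 and −0.23) and BS2 with −0.39 (0.14 and −0.25). The EH100 libraries and replicate 1 of EH50 came from the non-stranded kit. Against replicate 1 alone, in scaled RPKM from EH50 to EH100, the chromosome 7 BG1-like gene went from 6.52 to 4.08 in UC7 and from 12.96 to 13.01 in UC413. The chromosome 16 gene went from 6.18 to 2.98 and from 11.18 to 11.4, so within the kit the UC413 libraries of the pair hardly differed. The DA1-like gene went from 3.99 to 4.79 in UC7 and from 5.0 to 4.91 in UC413, where the difference was also small. BS1 went from 2.67 to 2.76 and from 2.79 to 2.47, and BS2 from 3.08 to 3.28 and from 3.31 to 2.95. Summed embryo markers were 367 in UC7 and 133.6 in UC413 at EH100, and their part in these values was not tested.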

How the results depend on the processing

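None of the 37 single values that passed the threshold changed sign in any alternative, but in 151 alternative values such a call was lost. Over all 120 results, with counts and values that had not passed among them, 2635 alternative values were computed. Of these 2340 kept direction and side of the threshold, or a similar count. The scaling moved most values: RPKM as deposited raised the median of all models to 0.71, 0.32 and 0.24 at EH10, EH25 and EH50. On that scale 4 of the 6 genes passed at EH10 in place of 1, 2 at EH25 in place of 1, 6 over the 3 stages in place of 3, 1 from EH10 to EH25 in UC7 in place of 0, and 1 for the isoline difference at EH50 minus EH10 in place of 0. List genes passing were 45, 9 and 40 at EH10, EH25 and over the 3 stages. Differences that turned were BS1 at EH10 (0.66) and EH25 (0.30), BS2 at EH10 (0.50), EH25 (0.29) and over the stages (0.42), BS1 and BS2 between tissues (−0.13 and −0.15), the KLU-type P450 between tissues in UC7 (−0.21), the DA1-like gene between tissues in UC413 (0.0036), Glyma.10G208200 at the 3 stages (0.61, 0.20 and 0.20) and Glyma.06G055200 at EH25 (0.10), none of them past the threshold before. With upper quartile scaling BS1 at EH25 (0.017), BS2 at EH25 (0.0012) and BS2 over the stages (0.017) turned. Upper quartile scaling and quantile normalization each gave 2 genes at EH10. Each stage fitted alone gave 0 at EH25.

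The replicate numbers in the labels were shared between isolines. Same-numbered libraries deviated together with r of 0.193, 0.226 and 0.468 at EH10, EH25 and EH50, with 2 pairs for a comparison. The labels tie a number to nothing further, although at EH50 same-numbered libraries also share the kit. With the number as a replicate block, 5 list genes passed at EH25 in place of 3, and the KLU-type P450 passed at EH10 and EH25 with and without it. From EH10 to EH50 in UC7, 2 genes passed, and 0 under a replicate block made stage by stage. From EH10 to EH50 in UC413, 2 passed, and 1 on RPKM as deposited, with upper quartile scaling, no filter, either replicate block, kit as a covariate, suffix 1 models or no trend. In an exact sign-change test within the 6 same-numbered pairs, a replicate block chosen after seeing the data, the BG1-like pair differed by 0.15 with UC413 higher in 6 of 6 pairs (p 0.03125, the smallest possible, and 0.0625 adjusted over the 2 pairs), and BS1 over BS2 in 4 of 6 (p 0.1875). Without a pseudocount the differences were 0.15 and 0.077. The causes were not tested.

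With each library left out in turn, the genes passing numbered 1 to 2 at EH10, 0 to 1 at EH25, 0 to 2 from EH10 to EH25 in UC7, 0 to 1 from EH25 to EH50 in UC413, and 0 to 2 from EH10 to EH50 in both isolines. List genes passing numbered 0 to 15, 0 to 8 and 0 to 16 at EH10, EH25 and EH50. Small differences turned: BS1 ran from −0.38 to 0.25 at EH10, −0.12 to 0.062 at EH25 and −0.059 to 0.15 over the stages, and BS2 from −0.54 to 0.053, −0.12 to 0.026 and −0.12 to 0.073, and −0.016 to 0.076 between tissues. The chromosome 16 BG1-like gene ran from −0.024 to 0.56 at EH50, the KLU-type P450 from −0.14 to 0.20 at EH50, −0.32 to 0.0041 from EH25 to EH50 in UC7 and −0.33 to 0.56 between tissues in UC7, and the DA1-like gene from −0.090 to 0.060 between tissues in UC413. Among list genes, Glyma.20G126700 (−0.095 to 0.24) and Glyma.05G091200 (−0.039 to 0.48) turned at EH10, Glyma.10G208200 at EH25 (−0.31 to 0.038) and EH50 (−0.17 to 0.036), and Glyma.05G108600 at EH50 (−0.20 to 0.20). The isoline difference of BS1 over BS2 ran from 0.035 to 0.089 (exact permutation p 0.0463 to 0.435) and of the BG1-like pair from 0.077 to 0.22 (exact permutation p 0.0463 to 0.389).

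Groups hold 1 or 2 libraries, and the isoline fit has 6 residual degrees of freedom. Whole seed coats and EH100 have 1 library for each isoline and class. Where a left-out library leaves a group with 1 library, that library is assumed to vary like the others.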
